A study of Mus musculus with 3 samples.

Results

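The genes described here are 10 chromatin regulators, Dnmt3a, Asxl2, Crebbp, Kdm2a, Men1, Arid1b, Ing1, Dpf2, Epc1 and Banf1, chosen by name from the 38205 gene identifiers in the tables because their products act in DNA methylation, histone modification, remodelling or nuclear assembly and because they lie where the tables hold usable values. All 10 were found, each in 1 row, with an estimate marked OK in every library. RNA was sequenced from LSK cells, the Lineage-, Sca1+, c-Kit+ stem and progenitor fraction of blood, sorted from the fetal livers of C57Bl/6 mouse embryos at E14.5. One library came from embryos homozygous for a DNMT3B7 transgene, 1 from hemizygous embryos and 1 from wild-type (WT) embryos (2, 1 and 0 transgenic alleles). Cells of 4 to 5 embryos were pooled for each. DNMT3B7 is a shortened form of DNMT3B, and the full-length DNMT3B is an enzyme that places new methyl groups on DNA. The promoter that drives the transgene is not given in the sources used here, and its expression was not analysed, so the genotype labels were not checked on it. With 1 library per genotype no test between genotypes was possible, no p-value is given, and each difference below compares libraries. In such bulk samples fewer cells of a type and less RNA per cell cannot be told apart.

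DNA methylation is laid down on CpG sites by DNMT3A and DNMT3B and copied at replication by DNMT1. The other proteins write, erase or read marks on histones, move nucleosomes or tie DNA to the nuclear envelope, and many of them are known for roles in blood. DNMT3A and CREBBP are recurrently mutated in human blood cancers, menin is the partner through which MLL fusion proteins drive leukaemia, and mouse blood stem cells need Asxl2 for their function.

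CpG sites, the substrate of the DNMT3 enzymes, were dense at the starts of most of the 8 members found in the RefSeq promoter table (build GRCm38.p6). The first window of each held a median of 26 CpG sites in the 250 bases before the annotated start, from 8 at Men1 to 44 at Crebbp, against a median of 6 over the 32851 windows of all genes (quartiles 2 and 16). Dnmt3a and Asxl2, near neighbours on chromosome 12, have 38 and 31 CpG sites in their first windows, while Men1 has 8. The first windows of these 3 members are shown because no other member had a window free of protein-coding exons. They run 5′ to 3′ on the + strand, with each CpG in capitals, at chr12:3806730-3806979 for Dnmt3a, chr12:3426607-3426856 for Asxl2 and chr19:6334729-6334978 for Men1. An exon of the noncoding gene 1110002L01Rik overlaps the Asxl2 window. The bases just after the Dnmt3a window were not found in its annotated transcripts, unlike those after the Asxl2 and Men1 windows.
Dnmt3a: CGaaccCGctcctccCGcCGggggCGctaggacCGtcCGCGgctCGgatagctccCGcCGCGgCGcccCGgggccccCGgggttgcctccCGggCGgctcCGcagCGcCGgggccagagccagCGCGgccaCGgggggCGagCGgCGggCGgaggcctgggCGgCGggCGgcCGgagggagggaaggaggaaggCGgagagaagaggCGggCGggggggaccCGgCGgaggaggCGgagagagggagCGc
Asxl2: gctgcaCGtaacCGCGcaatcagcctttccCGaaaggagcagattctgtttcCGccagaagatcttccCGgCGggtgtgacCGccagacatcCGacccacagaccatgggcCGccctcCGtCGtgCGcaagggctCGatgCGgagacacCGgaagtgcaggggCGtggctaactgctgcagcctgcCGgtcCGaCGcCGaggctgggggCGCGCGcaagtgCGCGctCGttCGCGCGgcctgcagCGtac
Men1: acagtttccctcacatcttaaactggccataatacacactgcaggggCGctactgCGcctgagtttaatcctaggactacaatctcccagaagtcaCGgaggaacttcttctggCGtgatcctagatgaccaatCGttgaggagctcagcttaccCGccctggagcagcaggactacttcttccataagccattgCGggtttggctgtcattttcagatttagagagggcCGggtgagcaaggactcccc
Short promoter motifs, matches of which may share letters with each other and with CpG sites, were searched on both strands of the first windows. The GC box GGGCGG was in 7 of the 8 members' windows and in 32.7% of all windows. The CCAAT box was in 3 (Men1, Dpf2 and Banf1), against 33.8% of all windows. The ETS-type motif CCGGAAGT was in the Asxl2 window alone among the members and in 2.88% of all windows. The E-box CACGTG was in none of the members' first windows and in 6.02% of all. Further windows of a member, numbered from the most upstream, were not counted, and some differed. Window 3 of Dnmt3a held the E-box and 15 CpG sites. Windows 2, 3 and 5 of Ing1 held the CCAAT box, and window 2 of Banf1 lacked it. Methylation was not measured in these files, and a match is a description of the letters only.

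Values are given as rescaled FPKM, the deposited fragments per length and depth divided by a factor common to the 3 libraries. Usable values were found in 10 chromosome segments and the mitochondrial genome, which hold 1454 genes, or 4.39% of those listed other than small RNA genes, and 972 of them reached a value of 1 in a library. The gate genes Ly6a and Kit, like the other 3 gate markers listed, lay outside the segments, so the sort could not be checked on them. Depth, read from the low values, came to about 2320000 fragments in the homozygous, 3010000 in the hemizygous and 3030000 in the WT library, with the median length of each gene's transcripts. Mitochondrial mRNAs then took 51.7%, 60.6% and 64.3% of the fragments on the usable genes in the same order of libraries. With the longest transcript the depths were 4820000, 5950000 and 5690000 fragments and the mitochondrial shares 29.7%, 37.2% and 41.8%. Markers of other cells were covered thinly. The summed value of the usable vessel wall markers, Col4a1 and Col4a2 (2 of 13), was 99.3 in the homozygous, 68.1 in the hemizygous and 52.6 in the WT library, and 6 of the 13 were listed at 0 in every library. That of the lymphoid markers Igll1, Vpreb1 and Vpreb2 (3 of 13 entries, with 1 of the 13 at 0 throughout) was 192, 400.4 and 517. The 4 usable erythroid markers of 11 (with 4 of the 11 at 0) summed to 3285, 4012 and 3987. Among them Car1 was highest in the homozygous library (76.7, 65.0 and 64.7), while Car2, Tfrc and Cpox were lowest there. The megakaryocyte markers Gp1bb and Gp5 (2 of 8, with 2 of the 8 at 0 throughout) summed to 34.9, 20.8 and 22.0. These 2 differed, with Gp5 at 30.1, 17.7 and 16.5 and Gp1bb at 4.76, 3.09 and 5.50. The myeloid markers Cebpd and Mmp8 (2 of 10, with 2 at 0) summed to 35.8, 39.7 and 45.6. Of 9 hepatocyte markers 7 were listed at 0 throughout and the usable one, Ahsg, was at 3.67, 3.49 and 3.70. The part of these differences in the results below was not tested.

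**Figure D1:**
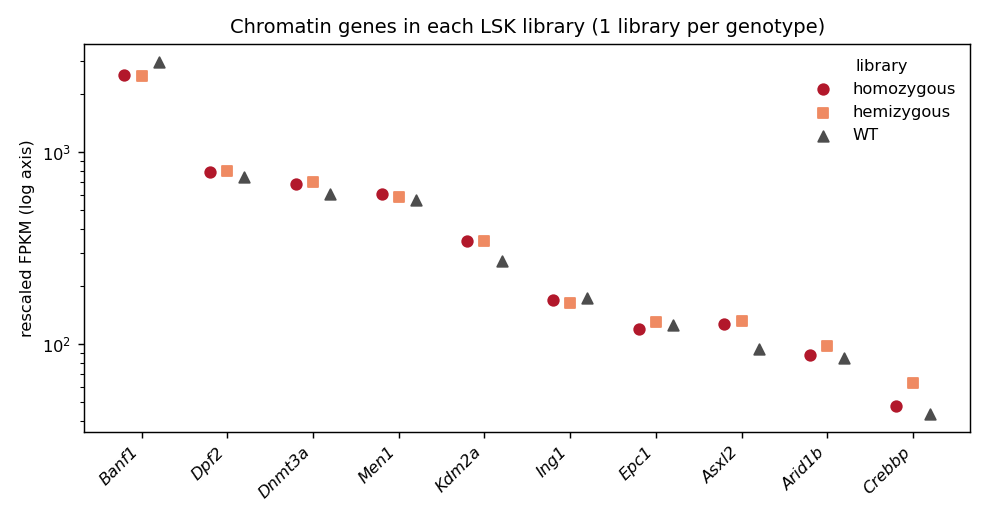
Rescaled FPKM (log axis) of the 10 genes in the homozygous, hemizygous and WT libraries, 1 point per library, ordered by mean. Banf1 is highest, at 2516, 2488 and 2967, and Crebbp lowest, at 47.8, 62.5 and 43.2.

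The 10 genes spanned a wide range of abundance, from Banf1 with a mean of 2657 over the 3 libraries to Crebbp with 51.1. Banf1 stood above 97.7% of the usable genes that reached a value of 1, Dnmt3a above 92.1%, Asxl2 above 66.0% and Crebbp above 47.5%. FPKM is per transcript length, so the order of genes rests on the transcript lengths used and on the gene to which shared reads were assigned. Neither was checked here. After Banf1 came Dpf2 (mean 779.9), Dnmt3a (661), Men1 (587), Kdm2a (319.9), Ing1 (169), Epc1 (126), Asxl2 (118), Arid1b (90.02) and Crebbp. Of the 9 pairs of neighbours in this order, 3 had ranges over the libraries that overlapped: Dnmt3a and Men1, Epc1 and Asxl2, and Asxl2 and Arid1b. Epc1 and Asxl2 also changed places, with Asxl2 the higher in the homozygous library and Epc1 the higher in WT. In the hemizygous library they were nearly equal, at 131.89 for Asxl2 and 131.25 for Epc1. The other 6 pairs did not overlap.

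Dnmt3a, which encodes a de novo DNA methyltransferase, had values of 683 in the homozygous, 698 in the hemizygous and 603 in the WT library. Both transgenic libraries were above WT, by 13.2% and 15.6%. The log2 ratio of value + 1 was 0.18 for homozygous versus WT, with a 95% counting interval of the plain ratio from 0.08 to 0.28, and 0.21 (0.11 to 0.31) for hemizygous versus WT. Between the transgenic libraries it was -0.03 (-0.13 to 0.07). The interval covers counting error only and rests on about 1630, 1839 and 1508 fragments, estimated with the median length of the 18 annotated transcripts. The longest of them, 9685 bases, would give 24920, 28120 and 23060 and an interval of 0.15 to 0.20 for homozygous versus WT.

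Asxl2 encodes a Polycomb-associated scaffold that activates BAP1, the enzyme that takes ubiquitin off histone H2A. Its values were 128 in the homozygous, 132 in the hemizygous and 94.0 in the WT library. Both transgenic libraries stood above WT, by 35.9% and 40.3%, and differed little from each other. The log2 ratio was 0.44 (0.34 to 0.55) for homozygous versus WT, the largest of the 10 genes in that comparison, 0.48 (0.39 to 0.59) for hemizygous versus WT and -0.05 (-0.14 to 0.05) between the transgenic libraries. Asxl2 and Dnmt3a are separated on chromosome 12 by a single protein-coding gene, Dtnb, which had values of 221 in the homozygous, 239 in the hemizygous and 210.2 in the WT library. The 6 other genes of that segment at or above the lowest member's mean had a median log2 ratio of -0.10 for homozygous versus WT, with 2 of 6 above 0, and of -0.06 for hemizygous versus WT, with 3 of 6 above 0.

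Kdm2a, a histone H3 lysine demethylase whose zinc finger binds unmethylated CpG, was the gene with the next largest ratio to WT in the homozygous library. It had values of 344 in the homozygous, 343 in the hemizygous and 272 in the WT library. The log2 ratio was 0.34 (0.24 to 0.44) for homozygous versus WT and 0.33 (0.24 to 0.43) for hemizygous versus WT, and 0.0047 (-0.09 to 0.10) between the transgenic libraries. Men1 encodes menin, a subunit of the MLL histone methyltransferase complexes. Its values were close together, at 608 in the homozygous, 586 in the hemizygous and 566 in the WT library. Its log2 ratio was 0.10 (0.05 to 0.16) for homozygous versus WT and 0.05 (-0.0015 to 0.10) for hemizygous versus WT. Men1 is the member nearest to the end of a usable segment, with 4 protein-coding genes between it and the break on chromosome 19.

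The acetylation genes differed in their pattern over the libraries. Crebbp encodes CBP, a histone acetyltransferase and coactivator, and had values of 47.8 in the homozygous, 62.5 in the hemizygous and 43.2 in the WT library. The hemizygous library stood apart from the other two. Its log2 ratio was 0.14 (-0.08 to 0.37) for homozygous versus WT, 0.52 (0.32 to 0.74) for hemizygous versus WT and -0.38 for homozygous versus hemizygous (plain ratio -0.59 to -0.18), resting on about 319, 461 and 302 fragments. With the longest transcript these were 1952, 2819 and 1849, and the interval for homozygous versus WT left out 0 (0.05 to 0.24). Epc1, the scaffold of the NuA4 (TIP60) acetyltransferase complex, had 119.7 in the homozygous, 131 in the hemizygous and 126 in the WT library, and the intervals of both ratios to WT held 0 (-0.20 to 0.06 and -0.06 to 0.18). Ing1, a PHD finger protein of the SIN3 and histone deacetylase complexes, had 169 in the homozygous, 163 in the hemizygous and 175 in the WT library. Its log2 ratios of -0.05 (-0.16 to 0.07) and -0.10 (-0.21 to 0.02) to WT also had intervals that held 0.

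Dpf2 and Arid1b belong to the BAF (SWI/SNF) remodelling complexes. Dpf2, a subunit whose PHD fingers read acetylated histones, had values of 792 in the homozygous, 802 in the hemizygous and 746 in the WT library. Both transgenic libraries were slightly higher, with log2 ratios to WT of 0.09 (0.03 to 0.15) and 0.10 (0.04 to 0.16). Arid1b, a DNA-binding subunit, had 87.7 in the homozygous, 97.8 in the hemizygous and 84.6 in the WT library. The log2 ratio of Arid1b was 0.05 (-0.03 to 0.13) for homozygous versus WT, 0.21 (0.13 to 0.29) for hemizygous versus WT and -0.16 (-0.24 to -0.08) between the transgenic libraries.

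Banf1, the barrier-to-autointegration factor that binds DNA and lamina proteins when the nuclear envelope reforms, was the one member below WT in both transgenic libraries with intervals that left out 0. It had 2516 in the homozygous, 2488 in the hemizygous and 2967 in the WT library, log2 ratios of -0.24 (-0.29 to -0.19) and -0.25 (-0.31 to -0.20) to WT. Under scaling to the full sum of values the homozygous ratio turned to 0.19, while the hemizygous ratio stayed below 0 at -0.09. Of the 50-base stretches of Banf1 transcripts, 25.5% also occur in other genes, chiefly Eif1ad, whose exons overlap on the opposite strand and which had values of 349, 330.03 and 327 in the homozygous, hemizygous and WT libraries. The strand setting is not given in the sources used here, so reads of the overlap cannot be told apart. For Epc1 the share was 6.24%, and for the other 8 members at most 1.22%, at Asxl2, whose exons overlap 1110002L01Rik on the opposite strand. Exons of Dnmt3a, Dpf2 and Epc1 also overlap other annotated genes, Dnmt3aos, Gm42067 and Gm28529, on the opposite strand.

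**Figure D2:**
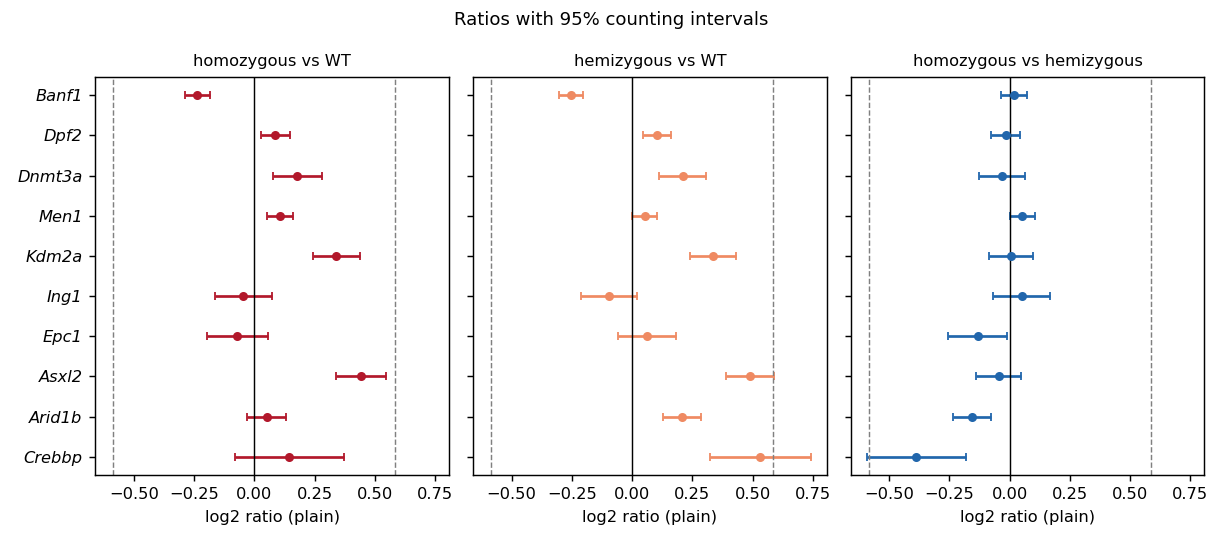
Plain log2 ratios of the 10 genes (points) with 95% counting intervals (bars) in the 3 comparisons; dashed lines mark 1.5-fold. All points lie inside the dashed lines, with Asxl2 and Kdm2a to the right and Banf1 to the left of 0 in both comparisons with WT.

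Homozygous was set against WT to ask how the genes stand when both alleles carry the transgene. None of the 10 genes passed the 2-fold rule on the log2 ratio of value + 1, against 4.4% of 955 genes measured, and none passed 1.5-fold, against 12.5%. Low genes make up much of that background, and among the 509 genes at or above the lowest member's mean, 4.91% passed 1.5-fold. The members' log2 ratios ran from -0.24 at Banf1 to 0.44 at Asxl2, with a median of 0.10, against a median of -0.04 over those 509 genes (quartiles -0.17 and 0.10). Of the members 7 were above 0, against 43.8% of the 509, and the counting interval left out 0 on the higher side for 5 members (18.5% of the 509) and on the lower side for 1 (27.5%). With the longest transcript the intervals of 7 members left out 0 in either direction, against 61.3% of the 509. Asxl2 stood above 98.2% of the 509, Kdm2a above 96.3%, Dnmt3a above 87.8% and Banf1 above 14.7%. The genes were picked by name with results of these libraries known, so nothing particular to them is read from these shares.

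**Figure D3:**
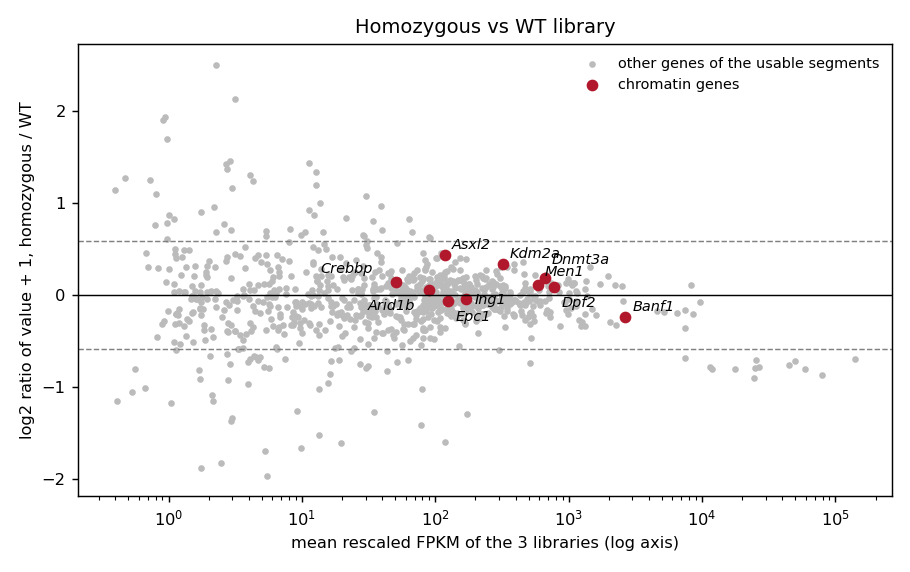
Log2 ratio of value + 1, homozygous over WT, against the mean rescaled FPKM of the 3 libraries (log axis), for 955 measured genes of the usable segments (grey) and the 10 chromatin genes (red); dashed lines mark 1.5-fold. The 10 red points lie between -0.24 and 0.44, while the spread of the grey points widens at low values.

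Hemizygous was set against WT to ask the same of a single transgenic allele. Again none of the 10 genes passed the 2-fold rule (2.73% of 954 genes measured) or 1.5-fold (7.97%, and 2.16% of the 509 more abundant genes). The members ran from -0.25 at Banf1 to 0.52 at Crebbp, with a median of 0.15 against -0.0043 over the 509 genes. Of the members 8 were above 0 (48.5% of the 509), and the interval left out 0 on the higher side for 6 (22.6%) and on the lower side for 1 (23.4%). With the longest transcript the intervals of 9 members left out 0, those of Men1 and Ing1 added, against 60.9% of the 509. Crebbp stood above 98.4% of the 509 genes, Asxl2 above 98.04%, Kdm2a above 95.3% and Banf1 above 8.64%. This comparison and the previous one share the WT library, so a low or high WT value enters both ratios of a gene.

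Homozygous was then set against hemizygous, the comparison within the transgenic libraries. No member passed 2-fold (4.57% of 962 genes measured) or 1.5-fold (11.4%, and 2.95% of the 509). The members' log2 ratios ran from -0.38 at Crebbp to 0.05 at Men1, with a median of -0.02, the same as the -0.02 of the 509 genes. Crebbp, Arid1b and Epc1 were lower in the homozygous library with intervals that left out 0 (3 of 10, against 24.6% of the 509). Under full-sum scaling Arid1b and Epc1 turned to 0.11 and 0.14, while Crebbp stayed below 0 at -0.11. Men1 was higher, with an interval that began just above 0 (1 of 10, against 12%). The other 6 intervals held 0, and with the longest transcript that of Dnmt3a left it out (-0.06 to -0.0065), which made 5 members in all against 52.1% of the 509. Of the members 4 were above 0, against 42.6% of the 509. Under median-ratio scaling 7 were above 0 (60.7% of the 509) and the members' median turned to 0.04, and under full-sum scaling 9 were above 0 (87.2%). Crebbp, Kdm2a, Men1, Ing1 and Banf1 kept their sign under all 4 scalings in this comparison, and the other 5 genes did not.

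Over the 3 libraries together, the ratio of the highest to the lowest value was 1.45 for Crebbp, 1.40 for Asxl2, 1.27 for Kdm2a and 1.19 for Banf1. For Ing1, Dpf2, Men1 and Epc1 it was between 1.07 and 1.10. The median over the 10 genes was 1.16, against 1.15 over 510 genes at or above the lowest member's mean (quartiles 1.09 and 1.23). Crebbp varied more than 91.6% of these genes and Asxl2 more than 91%, while Ing1 varied more than 16.7%.

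The level of all ratios depends on how the libraries are scaled. Equalizing the full sums of the libraries, mitochondrial mRNAs included, raised every homozygous over WT ratio by 0.43 and every hemizygous over WT ratio by 0.16. All 10 members were then above 0 for homozygous versus WT, as were 93.9% of the 509 genes. Asxl2 (0.87), Kdm2a (0.77) and Dnmt3a (0.61) passed 1.5-fold, as did 16.1% of the 509, and no member passed 2-fold. Asxl2 (0.64) and Crebbp (0.68) passed 1.5-fold for hemizygous versus WT, against 2.75% of the 509. Scaling by the median ratio or by the sum of the nuclear usable genes moved the ratios by at most 0.07, with no member past 1.5-fold. Under the nuclear sum 9 members were above 0 for homozygous versus WT, against 57.8% of the 509. The distance from the median member to the median of the 509 genes was 0.14 for homozygous versus WT and 0.16 for hemizygous versus WT under each of the 4 scalings. Each scaling multiplies a library by 1 factor and shifts all ratios nearly alike, so this distance could hardly change. Dnmt3a, Asxl2, Crebbp, Kdm2a, Men1, Arid1b and Dpf2 kept a ratio above 0 in both comparisons with WT under all 4. Ing1 turned from below to above 0 in both under some of them, and Epc1 and Banf1 did so for homozygous versus WT.

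**Figure D4:**
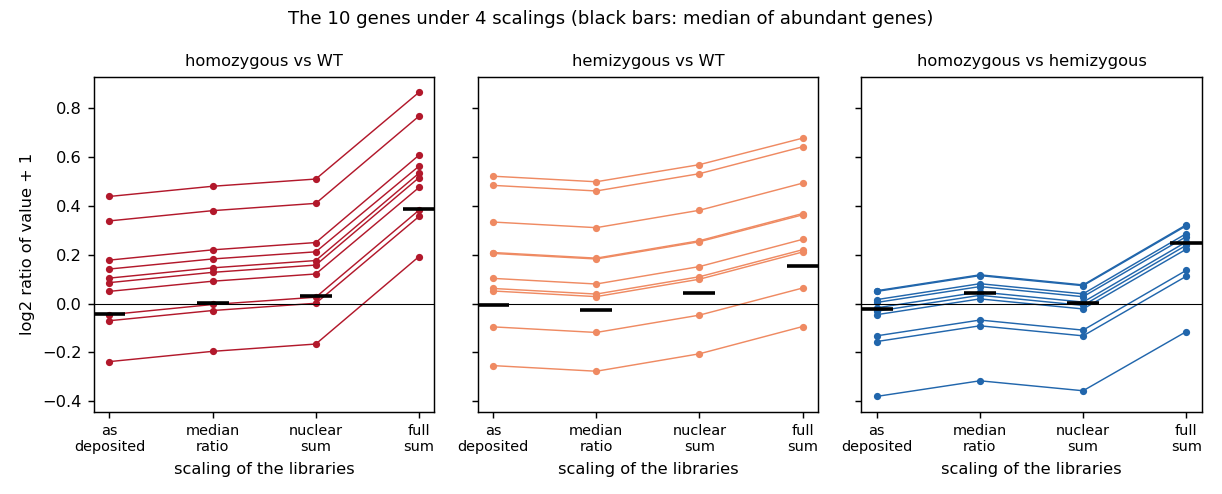
Log2 ratio of value + 1 for the 10 genes (lines) in the 3 comparisons, with the libraries as deposited, scaled by the median ratio, by the nuclear sum and by the full sum; black bars give the median of the 509 more abundant genes. The full sum lifts the members and the black bars together, by 0.43, 0.16 and 0.27 from left to right.

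Other chromatin genes were taken from lists of the complexes in which the members act and of other histone enzymes, chaperones and readers, 289 genes in the tables in all. Of the 289, 10 lay in usable segments, and all 10 reached a value of 1. As deposited, none of them passed 1.5-fold in any comparison, against 12.5% of all genes measured for homozygous versus WT, 7.97% for hemizygous versus WT and 11.4% for homozygous versus hemizygous. Among the 509 more abundant genes these shares were only 4.91%, 2.16% and 2.95%. Under full-sum scaling Hira (0.70), Naa60 (0.69), Suv420h1 (0.65) and Setd4 (0.62) passed 1.5-fold for homozygous versus WT, and none did in the other comparisons. The 4 of 10 stand against 22.8% of 958 genes and 16.1% of the 509 more abundant genes. Setd4, below the level of those 509, rested on about 48.5 fragments in its lowest library. Its counting interval as deposited ran from -0.34 to 0.78 for homozygous versus WT. The lists of DNA methylation, Asxl and PR-DUB, KMT2 and menin, BAF and other remodellers, and nuclear envelope genes had no usable gene, so Dnmt1, Dnmt3b and Dnmt3l cannot be set beside Dnmt3a. Usp7, a deubiquitinase found with noncanonical Polycomb complexes, had values of 733 in the homozygous, 804 in the hemizygous and 669.5 in the WT library. Its log2 ratios were 0.13 for homozygous and 0.26 for hemizygous versus WT. Brms1, of the SIN3 and deacetylase complexes like Ing1, was at 269.5, 273 and 278 in the same order of libraries.

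Among the acetyltransferase genes, Naa60 was at 305 in the homozygous, 289 in the hemizygous and 255 in the WT library (log2 ratios 0.26 for homozygous and 0.18 for hemizygous versus WT). Kat5, the catalytic subunit of the complex that Epc1 holds together, was at 177, 174 and 177. Of the histone methyltransferase list, Suv420h1, which methylates histone H4 and lies on chromosome 19 as Kdm2a does, was at 118, 131 and 101, which gave ratios of 0.23 and 0.38 to WT. Setd4 of the same list was at 25.8, 23.5 and 22.1. Hira, a chaperone of histone H3.3, was at 144, 141 and 119 (0.28 and 0.24), and Ubn1, of the same chaperone complex, at 113, 124 and 110.0, again in that order of libraries. Over the 10 genes the median log2 ratio was 0.14 for homozygous versus WT, 0.18 for hemizygous versus WT and -0.01 between the transgenic libraries. The 509 more abundant genes had medians of -0.04, -0.0043 and -0.02. Ratios above 0 numbered 7, 7 and 4 of the 10, against 43.8%, 48.5% and 42.6% of the 509. Under full-sum scaling the medians of the 10 genes were 0.55, 0.34 and 0.26, against 0.39, 0.15 and 0.25 over the 509.

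**Figure D5:**
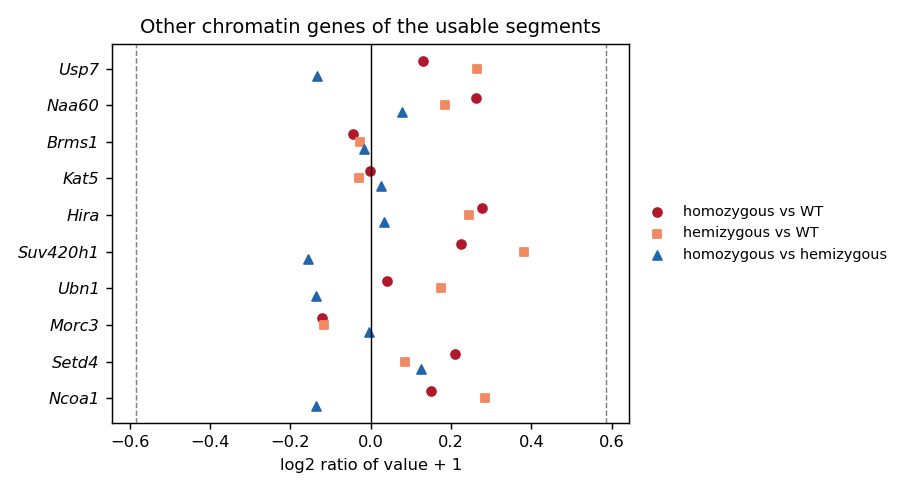
Log2 ratio of value + 1 in the 3 comparisons for the 10 other chromatin genes of the usable segments, ordered by mean value; dashed lines mark 1.5-fold. As deposited, every point lies inside the dashed lines; Suv420h1 has the largest ratio, 0.38 for hemizygous versus WT.

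For Dnmt3a and Asxl2, the genes with the nearest pattern were found by the distance between their pairs of log2 ratios to WT, among 513 usable genes with a mean value of at least 50. The pattern rests on 3 libraries, and both ratios share the WT library. The 3 nearest genes lie below the median distance of the genes compared by selection. Their distances are also smaller than the width of the counting intervals of Dnmt3a and Asxl2. Nearest to Dnmt3a were Klhl22 (distance 0.01), Dcun1d2 (0.02) and Kif5b (0.02), against a median distance of 0.34. Klhl22 had values of 83.6 in the homozygous, 84.8 in the hemizygous and 73.9 in the WT library. Nearest to Asxl2 were Cdk6 (0.04), Gm10557 (0.08) and Nrip1 (0.08), against a median of 0.70. Cdk6, a cyclin-dependent kinase of the G1 phase, had 165 in the homozygous, 173 in the hemizygous and 125 in the WT library.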

How the data were processed

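Each table held FPKM made by the authors, 1 value and 1 status (OK, LOWDATA or FAIL) for a gene, per the file headers. The submitters' processing notes name Cufflinks, TopHat2 and Bowtie2 and the mm9 mouse build, with no versions. Deposited sums were far above what FPKM allow (3584580000 in the homozygous, 4323430000 in the hemizygous and 4830710000 in the WT library, without small RNA genes and receptor J and D segments), so all values were divided by 1 factor, which leaves ratios as deposited. Many widely expressed genes were listed near 0. On each chromosome, ordered by GENCODE M21 (GRCm38; 36463 of 38205 identifiers matched), a break was therefore fitted on whether protein-coding genes averaged 200000 or more deposited FPKM, and the stretch before it was kept if the log likelihood gained at least 5 and at least 20% of its genes were high. Fragments were estimated from low values, taking a fragment length of 200 bases and the median length of a gene's annotated transcripts. The value that stands for 1 fragment was set on genes with 1 transcript of 1000 to 10000 bases. It was chosen to put the most low values within 0.05 of a whole fragment. The share reached, 69.5% to 71.6% per library, is therefore a result of the fit and no check on the estimates. Ratios used a pseudocount of 1, with genes at a value of at least 1 in a compared library and status OK in both. Alternatives were 3 other scalings, pseudocounts of 0.1 and 10, other filters, summed rows and the longest transcript. From the lists, the 2 highest genes of each were named. Members and lists were chosen with earlier results of these data known. Python 3.11.15, numpy 2.4.6 and pandas 2.3.3 were used. Break finding, the fragment unit, fold recovery and the counting intervals were tried on simulated data with counting error only, and the other steps were not. Intervals cover counting error only.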

Additional observations from a re-analysis of the deposited data

How the results depend on the processing

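Scaling to the full sum of values was the choice that moved results. The median log2 ratio of the 10 genes was then 0.525 for homozygous versus WT, 0.31 for hemizygous versus WT and 0.25 for homozygous versus hemizygous. The 509 more abundant genes moved with them, to medians of 0.39, 0.15 and 0.25. In the comparisons with WT 3 and 2 members passed 1.5-fold (16.1% and 2.75% of the 509). This scaling moved 29 of the 30 single ratios beyond their counting interval. The cause was not tested; that sum includes the mitochondrial mRNAs, whose share of fragments was lowest in the homozygous library. Median-ratio scaling and nuclear-sum scaling moved 3 single ratios each by more than their counting interval, and neither took a member past 1.5-fold. Under median-ratio scaling the median for homozygous versus hemizygous turned from -0.02 to 0.04, with 7 genes above 0 against 4 as deposited. Under the nuclear sum 9 genes against 7 were above 0 for homozygous versus WT. Pseudocounts of 0.1 and 10 moved no single ratio beyond its counting interval and no count past a fold rule. Dropping the filter, a minimum value of 5 and summed rows could not change any member's ratio. Every member had 1 row and values of at least 43.2. With the longest transcript, the intervals that left out 0 numbered 7, 9 and 5 against 6, 7 and 4 (homozygous versus WT, hemizygous versus WT, homozygous versus hemizygous), beside 61.3%, 60.9% and 52.1% of the 509 genes. No paired analysis was possible because each genotype had 1 library. Differences between embryo pools of one genotype cannot be seen in this design.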
